A study of Mus musculus with 12 samples.

Results

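The tripartite motif genes, whose symbols begin with Trim, make up a large family of ubiquitin ligases, and they were followed here across mouse LT-HSCs, the long-term haematopoietic stem cells that renew the blood from the bone marrow. Members were all rows of the deposited gene table whose symbol is Trim followed by a digit, which gave 53 of 28999 genes. No expression value entered that choice. RNA was sequenced from 12 libraries in 4 groups of 3, which were Trim47-/- after 5-fluorouracil (5-FU), wild type after 5-FU, Trim47-/- untreated and wild type untreated. The drug kills dividing cells, and the labels put its course at 10 days. All groups were labelled as bone marrow LT-HSCs. The genotype field reads Trim47 mutant, and Trim47 reads remained in those libraries, as given below. Not given in the sources used here are the part of the gene that was deleted, the antibodies of the sort, and the strain, sex and age of the mice. The comparisons ask how the other members of the family stood in cells labelled Trim47-/-, at rest and after the drug.

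A typical tripartite motif protein carries a RING finger that receives ubiquitin from an E2 enzyme, then B-box zinc fingers and a coiled coil that pairs the molecules. What follows the coiled coil, often a PRY-SPRY domain that binds a target, differs between branches of the family. Many members act in antiviral and inflammatory signalling and are themselves induced by interferon, while others silence genes in the nucleus or work at the cytoskeleton, in muscle or in erythroid cells.

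Total counts ran from 13919649 to 13953510 in Trim47-/- after 5-FU, from 15111811 to 15151589 in wild type after 5-FU, from 20661120 to 20703198 in untreated Trim47-/- and from 14828152 to 14885673 in untreated wild type. Nothing in the labels says that the 3 libraries of a group came from different mice, so the p-values measure the spread between these libraries only, and that spread may be technical. Within groups the median gene varied more than counting noise, since chi-square over its degrees of freedom had a median of 1.03 to 1.10, where counting alone gives 0.693. Of genes with at least 60 pooled counts in a group, 12.6% to 13.9% had a chi-square p under 0.01. Some members had unequal replicates beyond that noise, among them Trim26, Trim27 and Trim35 in more than 1 group. Levels are in CPM, which are counts divided by the library size after edgeR's TMM scaling and set to a common total. Of 10 LT-HSC markers none was at 0 in all libraries, and their summed level was 552 to 637 CPM in Trim47-/- after 5-FU, 932 to 1081 in wild type after 5-FU, 1024 to 1132 in untreated Trim47-/- and 899 to 1005 in untreated wild type. After 5-FU 9 of the 10 were lower in Trim47-/- and none higher, and in untreated cells 5 were higher and none lower. Over all genes 27.2% were higher and 27.6% lower after 5-FU, and 17.6% higher and 15.4% lower untreated. With 5-FU 2 of the LT-HSC markers rose and 6 fell in Trim47-/-, and 4 rose and 1 fell in wild type. Over all genes 29.6% rose and 30.8% fell with 5-FU in Trim47-/-, and 25.2% rose and 25.4% fell in wild type. The 10 monocyte and macrophage markers summed to 1071 to 1103 CPM in Trim47-/- after 5-FU, 611 to 625 in wild type after 5-FU, 479 to 505 in untreated Trim47-/- and 657 to 669 in untreated wild type, again with none at 0. All 10 were higher in Trim47-/- after 5-FU, and 5 were lower and none higher in untreated Trim47-/-. With 5-FU 9 of them rose and 0 fell in Trim47-/-, and 2 rose and 5 fell in wild type. Summed neutrophil markers were 5946 to 6328 CPM in Trim47-/- after 5-FU and 3846 to 3941 in wild type after 5-FU, with 9 of 10 higher and 1 lower. Their untreated sums overlapped, at 3239 to 3282 CPM in Trim47-/- and 3211 to 3336 in wild type, while 6 of the 10 were higher and 2 lower in Trim47-/-. Of 9 tested megakaryocyte markers, 0 were higher and 8 lower in Trim47-/- after 5-FU, and 1 was higher and 5 lower in untreated Trim47-/-. Of 9 tested B and plasma cell markers, 0 were higher and 5 lower after 5-FU, and 0 were higher and 2 lower in untreated Trim47-/-. All 10 listed summed to 53 to 86.3 CPM in Trim47-/- and 69.7 to 124 in wild type after 5-FU. Untreated they summed to 208 to 393 CPM in Trim47-/-, whose libraries were thus unequal, and 396 to 405 in wild type. Of 8 tested dendritic cell markers 1 was higher and 2 lower after 5-FU and 1 higher and 3 lower untreated, and of 5 tested T and NK cell markers 0 were higher and 1 lower after 5-FU and none passed untreated. With 5-FU in Trim47-/-, 9 neutrophil markers rose and 1 fell, and 6 megakaryocyte markers rose and 1 fell. There 0 B and plasma cell, 3 dendritic and 2 T and NK cell markers rose, and 7, 3 and 1 fell. In wild type 7 neutrophil markers rose and 0 fell, and 6 megakaryocyte markers rose and 2 fell. There 1 B and plasma cell, 0 dendritic and 2 T and NK cell markers rose, and 8, 7 and 2 fell. The part these markers have in the results below was not tested, and in bulk RNA fewer cells of a type and less RNA per cell cannot be told apart.

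As a whole the family held a somewhat smaller share of the RNA in both treated groups than in both untreated ones. Its sums did not overlap between any of the 4 groups, and its members ranged widely in level. Summed over all 53 genes it held 2279 ± 16.4 CPM in Trim47-/- after 5-FU, 2246 ± 14.2 in wild type after 5-FU, 2419 ± 8.18 in untreated Trim47-/- and 2378 ± 7.29 in untreated wild type (SD, n = 3 each). On the length-scaled FPKM values, the most abundant member was Trim28, the nuclear corepressor KAP1, with a mean of 77 and a range of 73.8 to 81 over the 12 libraries. Next came the antiviral ligase Trim25 at 33.4 (25.1 to 45.8), Trim44 at 31.1 (23.9 to 36.6) and Trim8 at 26.1 (19.4 to 33.4). The ranges of Trim25, Trim44 and Trim8 overlapped, so their order is not fixed beyond the spread, whereas the lowest Trim28 library stood above the highest library of every other member. Trim47 ranked 20th at 4.19 FPKM (1.84 to 7.3) and its neighbour Trim65 25th at 2.8 (1.78 to 3.51). At the bottom stood Trim67 and Trim38, each read in a single library. After the filter on low counts 46 members were tested, and Trim17, Trim38, Trim55, Trim67, Trim69, Trim71 and the pseudogene Trim30e-ps1 were not.

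Most members differed between the genotypes after 5-FU and fewer did in untreated cells, as was true of all genes, and the signs of many members turned between these states. After 5-FU 33 of the 46 tested members differed between Trim47-/- and wild type, with a p adjusted over all genes of under 0.05 in edgeR's quasi-likelihood test, 11 higher and 22 lower in Trim47-/-. That is 71.7% of them, against 54.7% of all 16319 genes tested, with 16 members past 1.5-fold (background 20.2%) and 3 past 2-fold (background 8.79%). The median log2 difference was -0.27 over the members and 0.00 over all genes. In untreated cells 21 members differed, 17 higher and 4 lower (45.7%, against 33% of all genes), with a median of 0.16 over members and 0.03 over all genes, with 4 members past 1.5-fold (background 8.41%) and 1, the rare Trim9, past 2-fold (background 3.75%). Of the 17 members called in both comparisons, which share no library, 14 had opposite signs. Among all genes called in both, 3388 of 3971 or 85.3% did so, and the members' 82.4% lies near that background.

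A group of 10 members was lower in Trim47-/- after 5-FU and higher in untreated Trim47-/-, namely Trim59, Trim32, Trim56, Trim5, Trim44, Trim65, Trim37, Trim68, Trim14 and Trim62. Trim25, Trim36, Trim39 and Trim30a did the opposite. Trim28, Trim8 and Trim13 were higher in Trim47-/- both times, and no member was lower both times. Leaving out each library in turn kept 14 of the 21 untreated calls and 28 of the 33 calls after 5-FU. The untreated calls that were lost at least once were those of Trim10, Trim21, Trim28, Trim32, Trim62, Trim65 and Trim68, and after 5-FU those of Trim26, Trim34b, Trim37, Trim39 and Trim41, whose edgeR adjusted p then reached up to 0.197.

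**Figure D1:**
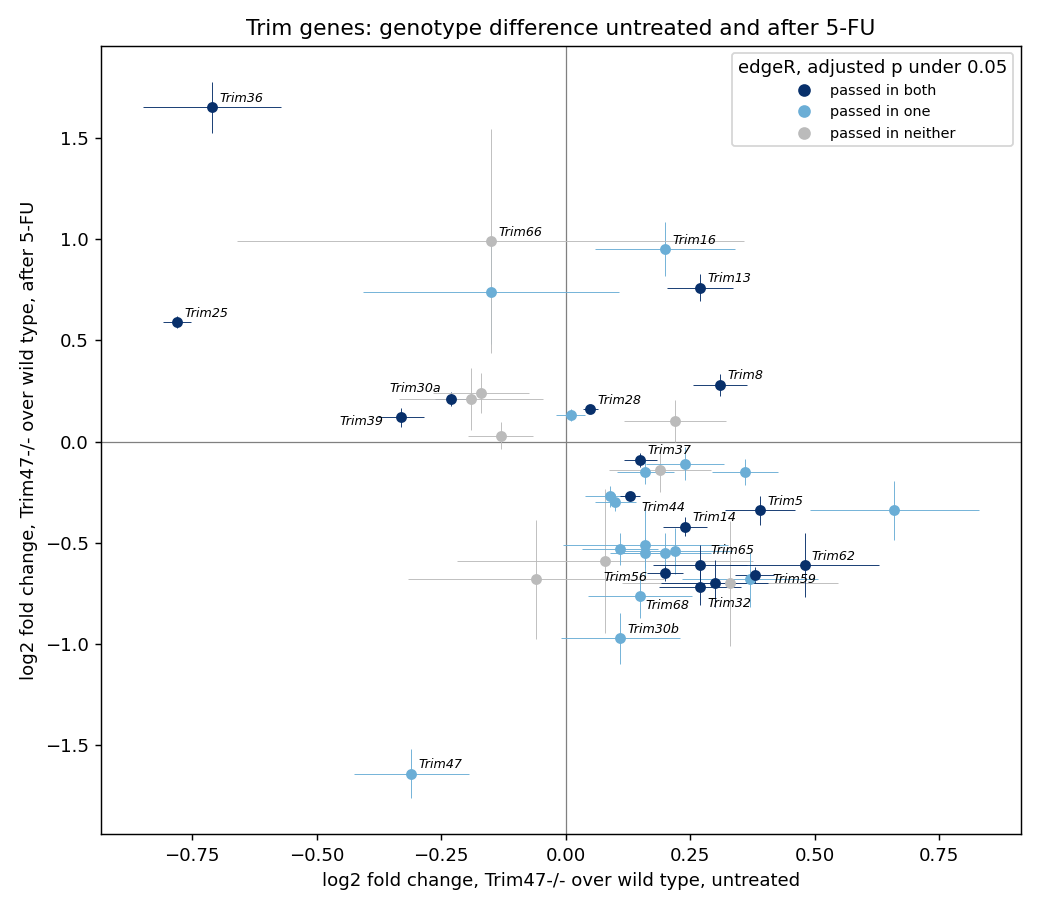
Each point is 1 tested Trim gene with lines of 1 SE, coloured by whether it passed in both, one or neither comparison, with the log2 difference of Trim47-/- against wild type in untreated cells on the x axis and after 5-FU on the y axis; Trim9 and Trim72, which had few counts, are not drawn. The 10 genes higher untreated and lower after 5-FU fill the lower right, with Trim25, Trim36, Trim39 and Trim30a in the upper left.

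The response to 5-FU itself was mostly downward in Trim47-/- and mixed in wild type. In Trim47-/-, 32 members passed the test between 5-FU and untreated cells, 7 higher after the drug (background 29.6%) and 25 lower (background 30.8%), together 69.6% against 60.5% of all genes, with a median of -0.36 over members and -0.01 over all genes. In wild type 27 members passed, 14 higher and 13 lower (58.7%, against 50.6%), 9 of them past 1.5-fold (background 18.8%) and 2 past 2-fold (background 9.92%), with a median of 0.05 over members and 0.01 over all genes. The interaction, meaning the response in Trim47-/- less the response in wild type, passed for 37 members, 10 above 0 and 27 below (80.4%, against 54.9%), 24 of them past 1.5-fold (background 30.5%), and its median was -0.46 over members and -0.03 over all genes. Leaving out single libraries kept 27 of the 32 calls in Trim47-/-, 21 of the 27 in wild type and 32 of the 37 interactions. Lost at least once were Trim2, Trim9, Trim24, Trim26 and Trim37 in Trim47-/-, and Trim6, Trim12a, Trim23, Trim30c, Trim56 and Trim72 in wild type.

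**Figure D2:**
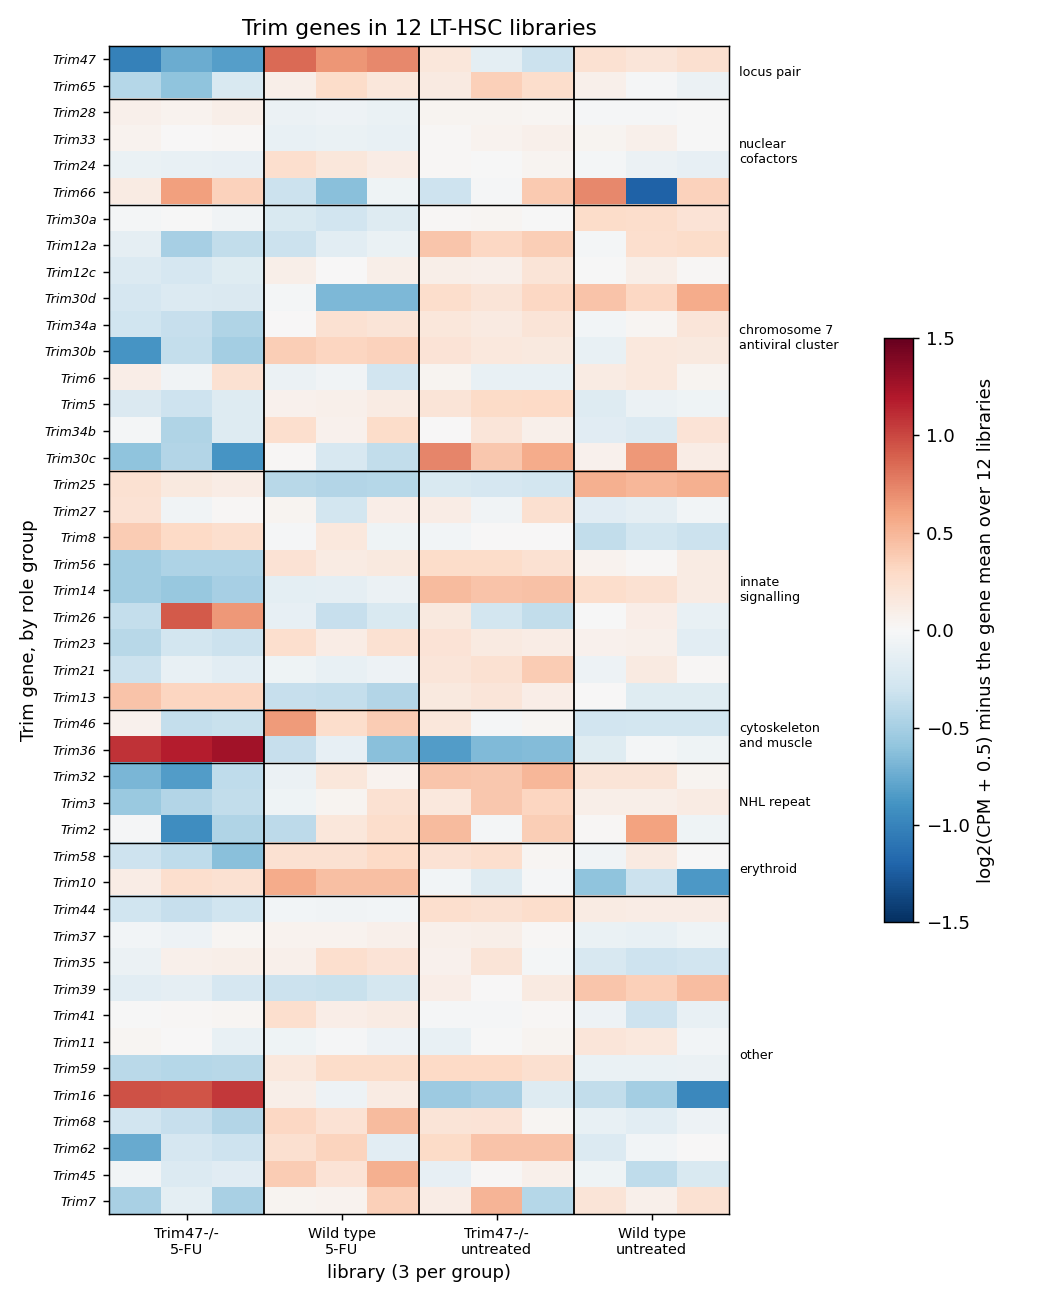
Heat map of the 44 tested Trim genes whose mean reached 1 CPM or more, one row per gene grouped by role and one column per library in the order Trim47-/- after 5-FU, wild type after 5-FU, Trim47-/- untreated, wild type untreated. Colour is the log2 level (CPM plus 0.5) relative to the gene's mean over the 12 libraries, limited at 1.5 either way; the 3 libraries of a group look alike in most rows, and Trim36 and Trim16 stand out in Trim47-/- after 5-FU.

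Trim47 itself, the targeted gene, gave reads in every library, and the libraries labelled Trim47-/- were clearly below wild type after the drug. It lies at chr11:116105752-116127210 on the minus strand of GRCm38. Its 3 libraries stood at 10.1, 12.2 and 11.6 CPM in Trim47-/- after 5-FU, 38.2, 33.3 and 34.7 in wild type after 5-FU, 23.7, 18.9 and 16.6 in untreated Trim47-/- and 24.6, 23.8 and 24.7 in untreated wild type. The groups were far apart after 5-FU and close in untreated cells, where replicate 1 of Trim47-/- lay just below the lowest wild type library. After 5-FU the log2 difference was -1.64 (SE 0.121, edgeR adjusted p = 5.50e-07), and in untreated cells -0.31 (SE 0.115, edgeR adjusted p = 0.0632), which did not pass. Without untreated Trim47-/- replicate 1 the untreated difference was -0.45 with an edgeR adjusted p of 0.00460. Between 5-FU and untreated cells Trim47 changed by -0.80 in Trim47-/- and 0.54 in wild type, with an interaction of -1.34 (SE 0.167, edgeR adjusted p = 3.87e-05). Counts per gene do not show which exons the remaining reads cover, so the genotype is not fully checked by these levels.

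Trim65, which ubiquitinates the RNA sensor MDA5, is the next gene on the same strand (chr11:116121846-116131128), and the annotation lets both genes share 225 exonic bases. The overlap comes from 1 of the 7 annotated Trim47 transcripts, a long non-coding one, Trim47-204, which reaches position 116127210. The other 6 end by 116110246, leaving 11599 bases between them and the first base of Trim65. Trim65 had 15.3, 13.5 and 17.6 CPM in Trim47-/- after 5-FU, 22.1, 25.3 and 23.3 in wild type after 5-FU, 22.9, 26.8 and 25 in untreated Trim47-/- and 21.9, 20.5 and 19.5 in untreated wild type. It was thus lowest in Trim47-/- after 5-FU, like Trim47, and in untreated cells it was, unlike Trim47, above wild type in all 3 libraries of Trim47-/-. The log2 difference after 5-FU was -0.61 (SE 0.0982, edgeR adjusted p = 0.000289). In untreated cells it was 0.27 (SE 0.095, edgeR adjusted p = 0.0466), a call that was lost when replicate 1 of Trim47-/- after 5-FU, replicate 3 of wild type after 5-FU, replicate 2 or 3 of untreated Trim47-/-, or replicate 1, 2 or 3 of untreated wild type was left out (log2 0.22 to 0.32, edgeR adjusted p 0.0527 to 0.145).

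Trim47 and Trim65 were also counted as 1 gene, an alternative chosen after seeing the data. Its outcome was set by the values above. Both genes were below wild type in Trim47-/- after 5-FU, and they stood on opposite sides of it untreated. The summed pair differed by -0.01 (SE 0.0586, edgeR adjusted p = 0.905) in untreated cells and by -1.14 (SE 0.0605, edgeR adjusted p = 3.95e-08) after 5-FU. How the reads of the shared bases were divided between both genes was not tested.

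**Figure D3:**
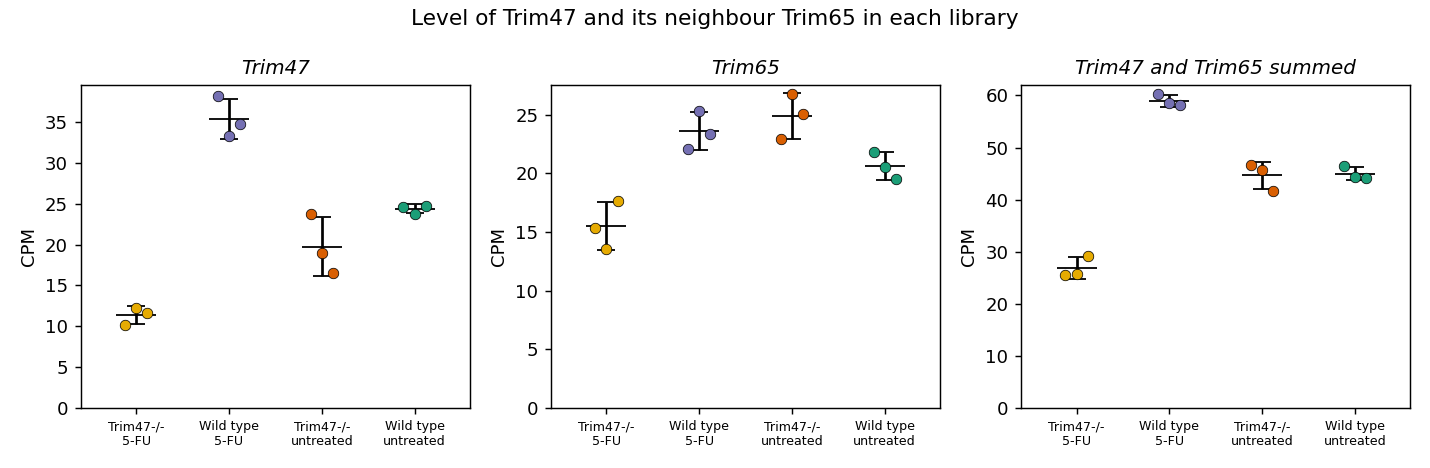
Trim47, Trim65 and their sum, in CPM, with 1 point per library, a line at the mean and error bars of 1 SD (n = 3), in the order Trim47-/- after 5-FU, wild type after 5-FU, Trim47-/- untreated, wild type untreated. Trim47 and the sum are lowest in Trim47-/- after 5-FU and highest in wild type after 5-FU, and the sums of the untreated groups overlap.

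Members that signal in innate immunity moved in both directions. Of 9 tested, 4 were higher and 3 lower in Trim47-/- after 5-FU, beside 27.2% of all genes higher and 27.6% lower, and 5 were higher and 1 lower in untreated Trim47-/-, beside 17.6% higher and 15.4% lower over all genes. Trim25, which adds ubiquitin chains to the viral RNA sensor RIG-I, passed in all 4 pairwise comparisons. Its libraries read 221, 209 and 204 CPM in Trim47-/- after 5-FU, 142, 139 and 140.3 in wild type after 5-FU, 161, 159 and 156 in untreated Trim47-/- and 275, 268 and 273 in untreated wild type. No pair of groups overlapped: untreated wild type was highest, then Trim47-/- after 5-FU, and wild type after 5-FU was lowest. Trim25 was higher in Trim47-/- after 5-FU by 0.59 (SE 0.0292, edgeR adjusted p = 2.32e-08) on the log2 scale and lower in untreated Trim47-/- at -0.78 (SE 0.029, edgeR adjusted p = 8.98e-09). After the drug it changed by 0.41 in Trim47-/- and -0.95 in wild type, with an interaction of 1.36 (SE 0.0411, edgeR adjusted p = 3.67e-10).

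Trim13, a ligase anchored in the endoplasmic reticulum, was higher in Trim47-/- in both states. It stood at 24.6, 22.7 and 22.8 CPM in Trim47-/- after 5-FU and 14.2, 14 and 13.2 in wild type after 5-FU, and at 20.1, 20.7 and 19.4 in untreated Trim47-/- and 18.2, 15.9 and 15.9 in untreated wild type. The groups of each pair did not overlap, and the gap was wider after 5-FU, at log2 0.76 (SE 0.0674, edgeR adjusted p = 2.51e-06) against 0.27 (SE 0.0662, edgeR adjusted p = 0.0096) untreated, with an interaction of 0.49 (SE 0.0944, edgeR adjusted p = 0.000948). Trim8, a regulator of cytokine signalling, was also higher both times, by 0.28 after 5-FU and 0.31 untreated, and its interaction of -0.03 did not pass (edgeR adjusted p = 0.791).

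Trim14 and Trim56, which support antiviral signalling through MAVS and STING, fell in Trim47-/- after the drug. Trim14 had 25, 24.2 and 25.5 CPM in Trim47-/- after 5-FU, 32.7, 33 and 34.1 in wild type after 5-FU, 50.4, 48.9 and 49.1 in untreated Trim47-/- and 43.4, 42.6 and 39.4 in untreated wild type. Both untreated groups stood above both treated ones, without overlap. The 5-FU response was -0.99 (SE 0.046, edgeR adjusted p = 7.90e-09) in Trim47-/- and -0.33 (SE 0.0455, edgeR adjusted p = 9.54e-05) in wild type. Trim14 shares 1356 of its 4338 exonic bases with Nans on the opposite strand, and whether the counting used strand is not given in the sources used here. Trim56 averaged 50.2 ± 1.06 CPM in Trim47-/- after 5-FU, 78.7 ± 2.5 in wild type after 5-FU, 84.1 ± 1.48 in untreated Trim47-/- and 73.4 ± 2.65 in untreated wild type (SD, n = 3 each). Its differences between genotypes were -0.65 (SE 0.0372, edgeR adjusted p = 7.33e-08) after 5-FU and 0.20 (SE 0.0364, edgeR adjusted p = 0.0017) untreated.

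The Trim26 libraries of Trim47-/- after 5-FU read 19.9, 49.2 and 40.6 CPM, so replicate 1 stood far below the other two and just under the lowest wild type library, of 23.6, 20.1 and 21.9 CPM. Its log2 difference was 0.74 (SE 0.259, edgeR adjusted p = 0.0301). The call was lost when replicate 2 or 3 of Trim47-/- after 5-FU, or replicate 1, 2 or 3 of wild type after 5-FU was left out (log2 0.47 to 0.80, edgeR adjusted p 0.0508 to 0.145). Trim23, which joins a RING to an ARF GTPase domain, was lower in Trim47-/- than in wild type after 5-FU, at -0.55. Trim21, the cytosolic antibody receptor, differed by 0.24 in untreated cells, a call that was lost when replicate 3 of wild type after 5-FU, replicate 2 or 3 of untreated Trim47-/-, or replicate 1 or 3 of untreated wild type was left out (log2 0.18 to 0.26, edgeR adjusted p 0.0572 to 0.135). The abundant Trim27 did not pass in any of the 4 pairwise comparisons.

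**Figure D4:**
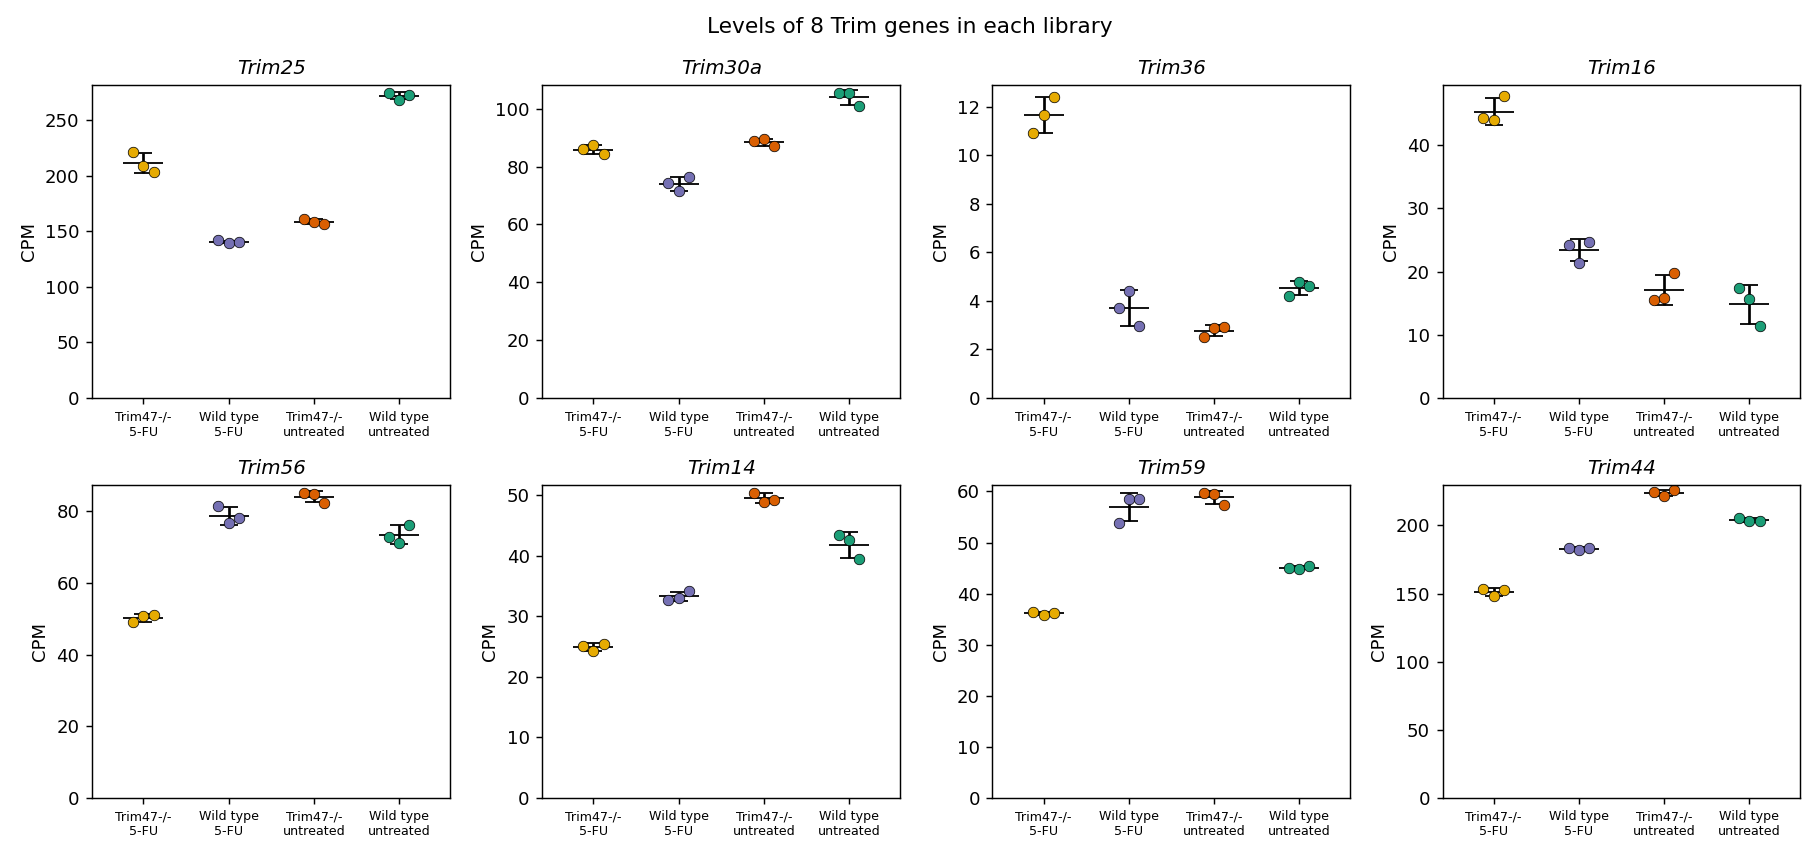
CPM of Trim25, Trim30a, Trim36, Trim16, Trim56, Trim14, Trim59 and Trim44, 1 point per library, with a line at the mean and error bars of 1 SD (n = 3), in the order Trim47-/- after 5-FU, wild type after 5-FU, Trim47-/- untreated, wild type untreated. Trim25 is highest in untreated wild type, while Trim36 and Trim16 are highest in Trim47-/- after 5-FU with all 3 libraries above every other library.

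The antiviral members on chromosome 7, relatives of the primate restriction factor TRIM5, sit side by side, among them close pairs such as Trim12a and Trim12c, and how reads were divided between like copies was not tested. Of 11 listed, 10 were tested, and the pseudogene Trim30e-ps1 was not. After 5-FU 1 was higher and 5 lower in Trim47-/-, beside 27.2% of all genes higher and 27.6% lower. In untreated cells 1 was higher and 1 lower, beside 17.6% higher and 15.4% lower over all genes. Counted as 1 gene, the 10 differed by -0.06 (SE 0.0253, edgeR adjusted p = 0.0755) after 5-FU and by -0.04 (SE 0.0251, edgeR adjusted p = 0.212) untreated, neither past the threshold. The summed cluster was lower after the drug in both genotypes, at -0.31 (SE 0.0252, edgeR adjusted p = 7.73e-07) in Trim47-/- and -0.30 (SE 0.0252, edgeR adjusted p = 1.77e-06) in wild type. This sum was also chosen after seeing the data. Of the 10 members 0 rose and 7 fell with 5-FU in Trim47-/-, beside 29.6% and 30.8% of all genes. In wild type 0 rose and 5 fell, beside 25.2% and 25.4%. The interaction was above 0 for 2 and below 0 for 6, beside 26.4% and 28.5% of all genes. That of the sum was -0.01 (edgeR adjusted p = 0.772), so the sum joins members of opposite signs.

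The promoters of 4 cluster members hold the core of the interferon-stimulated response element, read here as GAAA, any 2 bases and GAAA again, on either strand, within the 250 bases before the gene start. Across 32851 RefSeq promoters 978 (2.98%) hold it, and so do 5 of the 54 listed for 41 members, those of Trim5, Trim12c, Trim30a and Trim30d in the cluster and Trim26 on chromosome 17. The interferon-gamma element TTCNNNGAA, on either strand, was in 7.02% of all promoters and in 3 of those 54, of Trim30c, Trim45 and Trim46. Trim25, which differed between genotypes with the same signs as Trim30a, has no match to either pattern. Other forms of these elements were not searched, and the part of the motifs in the values was not tested. Windows of 180 bases are shown for Trim25 and for the 5 with the first motif, so that the shared stretches can be seen beside the values. They are from RefSeq, build GRCm38.p6, 5′ to 3′ on the strand of each gene, and capitals mark the motif as it reads on that strand.
Trim30a (chr7:104465194-104465373, minus strand): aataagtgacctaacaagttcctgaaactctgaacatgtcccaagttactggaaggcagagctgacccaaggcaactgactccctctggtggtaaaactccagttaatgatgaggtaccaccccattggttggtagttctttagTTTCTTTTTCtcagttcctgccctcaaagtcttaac
Trim30d (chr7:104507850-104508029, minus strand): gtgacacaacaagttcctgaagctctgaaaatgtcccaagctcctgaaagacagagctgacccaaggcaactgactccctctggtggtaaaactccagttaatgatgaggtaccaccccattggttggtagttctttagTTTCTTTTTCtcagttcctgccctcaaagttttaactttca
Trim5 (chr7:104288107-104288286, minus strand): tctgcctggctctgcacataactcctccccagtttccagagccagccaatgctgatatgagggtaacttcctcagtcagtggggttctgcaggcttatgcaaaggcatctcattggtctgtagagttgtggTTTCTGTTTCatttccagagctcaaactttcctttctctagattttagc
Trim12c (chr7:104353350-104353529, minus strand): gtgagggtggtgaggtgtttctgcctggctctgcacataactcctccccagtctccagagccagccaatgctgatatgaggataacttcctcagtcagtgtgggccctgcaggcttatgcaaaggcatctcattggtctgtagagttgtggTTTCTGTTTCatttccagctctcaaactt
Trim26 (chr17:36836966-36837145, plus strand): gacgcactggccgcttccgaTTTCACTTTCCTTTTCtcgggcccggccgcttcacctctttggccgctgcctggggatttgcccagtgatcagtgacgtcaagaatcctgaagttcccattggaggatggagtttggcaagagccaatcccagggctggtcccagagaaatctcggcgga
Trim25 (chr11:88999223-88999402, plus strand): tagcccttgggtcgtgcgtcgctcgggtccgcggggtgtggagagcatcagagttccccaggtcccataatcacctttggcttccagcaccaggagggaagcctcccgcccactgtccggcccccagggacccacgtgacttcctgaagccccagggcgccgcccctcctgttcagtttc
The motif starts 36 bases before the start of Trim30a and 41 before that of Trim30d, inside a run of 118 identical bases. In Trim5 and Trim12c it starts 49 and 29 bases before the gene start, inside a shared run of 63 bases, and Trim26 holds 2 overlapping matches. The longest run that Trim30a and Trim5 share is 7 bases. A match is only a description of these letters.

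Trim30a and Trim5, which both carry the motif, differed with genotype in opposite directions. Trim30a, a mouse brake on Toll-like receptor signalling, had 86, 87.4 and 84.3 CPM in Trim47-/- after 5-FU, 74.3, 71.4 and 76.3 in wild type after 5-FU, 88.7, 89.4 and 86.9 in untreated Trim47-/- and 106, 105 and 101 in untreated wild type. Its genotype groups did not overlap in either state, with log2 differences of 0.21 (SE 0.0327, edgeR adjusted p = 0.000185) after 5-FU and -0.23 (SE 0.0322, edgeR adjusted p = 0.000226) untreated. Trim5 had 6.93, 6.45 and 7.03 CPM in Trim47-/- after 5-FU, 8.53, 8.54 and 8.86 in wild type after 5-FU, 9.37, 9.97 and 10.1 in untreated Trim47-/- and 7.05, 7.62 and 7.74 in untreated wild type. It was lower in Trim47-/- after 5-FU at -0.34 (SE 0.0732, edgeR adjusted p = 0.00497) and higher in untreated Trim47-/- at 0.39 (SE 0.0705, edgeR adjusted p = 0.00136), again without overlap.

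Within the Trim30 branch, single genes went separate ways. Trim30b read 4.84, 7.24 and 6.45 CPM in Trim47-/- after 5-FU, 12.3, 11.9 and 12.1 in wild type after 5-FU, 10.9, 10.5 and 10.5 in untreated Trim47-/- and 8.65, 10.5 and 10.4 in untreated wild type. All 3 libraries of Trim47-/- after 5-FU were below the other 9, with a difference of -0.97 (SE 0.126, edgeR adjusted p = 5.47e-05) after 5-FU and an interaction of -1.07 (SE 0.173, edgeR adjusted p = 0.000285). Trim30d read 14.2, 14.7 and 14.6 CPM in Trim47-/- after 5-FU, 16.6, 10.4 and 10.4 in wild type after 5-FU, 20.5, 19.5 and 21.1 in untreated Trim47-/- and 23, 21.2 and 25.3 in untreated wild type. It fell with 5-FU in both genotypes, at log2 -0.49 (SE 0.149, edgeR adjusted p = 0.0142) in Trim47-/- and -0.89 (SE 0.15, edgeR adjusted p = 0.000434) in wild type, and did not pass between genotypes in either state, at 0.21 after 5-FU (edgeR adjusted p = 0.264). Replicate 1 of wild type after 5-FU lay above the other two, and without it the difference after 5-FU was 0.48 (edgeR adjusted p = 0.00086) and the interaction 0.66 (edgeR adjusted p = 0.000492), against 0.40 with it. Trim30c was scarce, at 0.722, 0.869 and 0.508 CPM in Trim47-/- after 5-FU, 1.39, 1.08 and 0.949 in wild type after 5-FU, 2.6, 1.96 and 2.25 in untreated Trim47-/- and 1.45, 2.43 and 1.52 in untreated wild type. Its fall with 5-FU was -1.69 (SE 0.265, edgeR adjusted p = 0.000184) in Trim47-/-, against -0.66 in wild type. The wild type call was lost when replicate 1 or 2 of Trim47-/- after 5-FU, replicate 2 or 3 of wild type after 5-FU, replicate 1, 2 or 3 of untreated Trim47-/-, or replicate 2 of untreated wild type was left out (log2 -0.66 to -0.38, edgeR adjusted p 0.0528 to 0.291). Its interaction of -1.03 lost the call when replicate 1 or 3 of Trim47-/- after 5-FU, replicate 1 or 2 of wild type after 5-FU, replicate 1 or 3 of untreated Trim47-/-, or replicate 1 or 3 of untreated wild type was left out (log2 -1.07 to -0.85, edgeR adjusted p 0.0531 to 0.098).

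The nuclear cofactors comprise Trim28, which recruits silencing enzymes to KRAB zinc finger proteins, Trim24 and Trim33, which act with nuclear receptors and SMADs, and Trim66. Trim28 held nearly level, with 613, 602 and 618 CPM in Trim47-/- after 5-FU, 547, 551 and 541 in wild type after 5-FU, 596, 598 and 595 in untreated Trim47-/- and 575, 573 and 577 in untreated wild type. Its groups did not overlap within either pair, yet the differences were small, at 0.16 (SE 0.0149, edgeR adjusted p = 3.64e-06) after 5-FU and 0.05 (SE 0.0148, edgeR adjusted p = 0.0194) untreated. The untreated call was lost when replicate 3 of wild type after 5-FU was left out (log2 0.03, edgeR adjusted p = 0.125). Trim24 was lower in Trim47-/- after 5-FU at -0.30 and Trim33 higher at 0.13, while the rare Trim66 did not pass at 0.99 (edgeR adjusted p = 0.155), though it passed when replicate 2 of untreated wild type was left out (log2 0.99, edgeR adjusted p = 0.0276).

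Of 10 tested partners of Trim28 in gene silencing, 0 were higher and 8 lower in Trim47-/- after 5-FU, with a median of -0.28, beside 27.2% of all genes higher and 27.6% lower. In untreated Trim47-/- 3 were higher and 0 lower, with a median of 0.07, beside 17.6% higher and 15.4% lower over all genes. Chd3, a subunit of the NuRD remodelling complex, averaged 421 ± 12 CPM in Trim47-/- after 5-FU, 668 ± 2.92 in wild type after 5-FU, 458 ± 7.23 in untreated Trim47-/- and 440.2 ± 12.5 in untreated wild type (SD, n = 3 each). Its difference after 5-FU was -0.67 (SE 0.0253, edgeR adjusted p = 2.79e-09). The heterochromatin protein gene Cbx5 differed by -0.27 and the remodeller Chd4 by -0.12 after 5-FU.

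Among members tied to the cytoskeleton or to muscle, Trim36 and Trim72 were highest in Trim47-/- after 5-FU. Trim36, a microtubule-bound ligase on chromosome 18, had 10.9, 11.7 and 12.4 CPM in Trim47-/- after 5-FU, 3.73, 4.43 and 2.97 in wild type after 5-FU, 2.5, 2.9 and 2.93 in untreated Trim47-/- and 4.22, 4.78 and 4.63 in untreated wild type. Only Trim47-/- after 5-FU exceeded 5 CPM, and untreated Trim47-/- was below untreated wild type. The differences between genotypes were 1.65 (SE 0.126, edgeR adjusted p = 7.47e-07) after 5-FU and -0.71 (SE 0.138, edgeR adjusted p = 0.00229) untreated, and the drug response was 2.07 (SE 0.127, edgeR adjusted p = 7.66e-08) in Trim47-/- and -0.29 in wild type (edgeR adjusted p = 0.0996). The wild type response passed when replicate 2 of wild type after 5-FU was left out (log2 -0.44, edgeR adjusted p = 0.0271). Its interaction, 2.36 (SE 0.187, edgeR adjusted p = 9.96e-07), was the largest rise among members with a mean of at least 1 CPM.

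Trim72, the membrane repair protein MG53 of muscle, was scarce outside Trim47-/- after 5-FU. Its raw counts were 40, 25 and 34 in Trim47-/- after 5-FU, 0, 1 and 4 in wild type after 5-FU, 3, 8 and 4 in untreated Trim47-/- and 8, 6 and 9 in untreated wild type. All 3 libraries of Trim47-/- after 5-FU lay above the other 9. The fitted log2 difference after 5-FU, 4.40 (SE 0.501, edgeR adjusted p = 1.83e-05), depends on the prior count, since 1 wild type library had none. Trim72 shares 617 of its 2233 exonic bases with the antisense gene Gm15533. Trim46, which bundles microtubules in axons, had 6.93, 5.07 and 5.15 CPM in Trim47-/- after 5-FU, 10.6, 8.03 and 8.79 in wild type after 5-FU, 7.5, 6.53 and 6.74 in untreated Trim47-/- and 5.33, 5.41 and 5.39 in untreated wild type. It was highest in wild type after 5-FU. The response to the drug was -0.28 in Trim47-/- (edgeR adjusted p = 0.101) and 0.77 (SE 0.136, edgeR adjusted p = 0.000619) in wild type, with an interaction of -1.04 (SE 0.192, edgeR adjusted p = 0.000726). The response in Trim47-/- passed when replicate 1 of Trim47-/- after 5-FU was left out (log2 -0.44, edgeR adjusted p = 0.014). The neuronal ligase Trim9 had 8, 4 and 6 raw counts in Trim47-/- after 5-FU, 6, 10 and 4 in wild type after 5-FU, 26, 20 and 24 in untreated Trim47-/- and 2, 4 and 0 in untreated wild type. Untreated Trim47-/- stood above the other 9 libraries.

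Of 3 tested members with NHL repeats, 2 were lower in Trim47-/- after 5-FU, beside 27.6% of all genes. With 5-FU 3 fell in Trim47-/-, beside 30.8% of all genes. None passed with 5-FU in wild type, where 50.6% of all genes did. Trim32, known from muscle disease, had 7.22, 6.45 and 8.99 CPM in Trim47-/- after 5-FU, 11.1, 13.4 and 12.4 in wild type after 5-FU, 16, 16 and 17.1 in untreated Trim47-/- and 13.7, 13.7 and 12.3 in untreated wild type. Trim47-/- after 5-FU was the lowest group without overlap. The drug response was -1.11 (SE 0.113, edgeR adjusted p = 5.50e-06) in Trim47-/- and -0.11 in wild type, which did not pass (edgeR adjusted p = 0.463). Its untreated genotype difference of 0.30 lost the call when replicate 1 of Trim47-/- after 5-FU, replicate 3 of wild type after 5-FU, replicate 1, 2 or 3 of untreated Trim47-/-, or replicate 1, 2 or 3 of untreated wild type was left out (log2 0.26 to 0.33, edgeR adjusted p 0.0565 to 0.15). Trim3 differed by -0.55 after 5-FU. Trim2 fell with 5-FU in Trim47-/- at -0.89, a call lost when replicate 2 or 3 of Trim47-/- after 5-FU, or replicate 1 or 3 of untreated Trim47-/- was left out (log2 -0.87 to -0.62, edgeR adjusted p 0.0841 to 0.143).

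Trim10 and Trim58 act in red cell maturation. Trim10 had 2.24, 2.54 and 2.47 CPM in Trim47-/- after 5-FU, 3.22, 2.97 and 2.97 in wild type after 5-FU, 1.96, 1.72 and 2 in untreated Trim47-/- and 1.18, 1.52 and 0.899 in untreated wild type. Both treated groups stood above both untreated ones, and the response was 0.35 in Trim47-/- (edgeR adjusted p = 0.115) and 1.34 (SE 0.163, edgeR adjusted p = 3.54e-05) in wild type. The untreated genotype difference of 0.66 (SE 0.17, edgeR adjusted p = 0.0195) was lost when replicate 3 of untreated Trim47-/-, or replicate 1 or 3 of untreated wild type was left out (log2 0.49 to 0.64, edgeR adjusted p 0.0551 to 0.148). Trim58 had 4.19, 3.98 and 3.26 CPM in Trim47-/- after 5-FU, 6.32, 6.33 and 6.71 in wild type after 5-FU, 6.28, 6.43 and 5.47 in untreated Trim47-/- and 5.12, 5.89 and 5.32 in untreated wild type. All 3 libraries of Trim47-/- after 5-FU were below the other 9, with a difference of -0.76 (SE 0.111, edgeR adjusted p = 0.000139) from wild type after 5-FU. Beside these, the 10 erythroid markers summed to 544 to 556 CPM in Trim47-/- after 5-FU, 537 to 551 in wild type after 5-FU, 304 to 311 in untreated Trim47-/- and 284 to 293 in untreated wild type, with none at 0. With 5-FU 8 of them rose and none fell in Trim47-/-, and 9 rose and 1 fell in wild type. Between genotypes 1 was higher and 5 lower in Trim47-/- after 5-FU (median -0.21), and 6 were higher and 1 lower in untreated Trim47-/- (median 0.59). The interaction was above 0 for 1 and below 0 for 8, and the part of these markers in the Trim10 and Trim58 values was not tested.

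The remaining 12 tested members, of varied roles, included 2 higher and 7 lower in Trim47-/- after 5-FU, beside 27.2% of all genes higher and 27.6% lower, and 6 higher and 1 lower in untreated Trim47-/-, beside 17.6% higher and 15.4% lower over all genes. Trim16, which helps clear damaged lysosomes, was one that rose. It stood at 44.3, 44 and 47.7 CPM in Trim47-/- after 5-FU, 24.2, 21.4 and 24.7 in wild type after 5-FU, 15.4, 15.9 and 19.7 in untreated Trim47-/- and 17.4, 15.7 and 11.4 in untreated wild type. It rose with 5-FU in both genotypes, and more in Trim47-/-, at 1.41 (SE 0.135, edgeR adjusted p = 3.31e-06) against 0.66 (SE 0.14, edgeR adjusted p = 0.00214) in wild type, with an interaction of 0.75 (SE 0.194, edgeR adjusted p = 0.00624). Its difference between genotypes after 5-FU was 0.95 (SE 0.134, edgeR adjusted p = 0.0001), and 237 of its 4568 exonic bases lie in Fbxw10 on the same strand.

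Trim59, a membrane protein of the endoplasmic reticulum, was lower in Trim47-/- after 5-FU and higher in untreated Trim47-/-, without overlap in either state. Its libraries read 36.5, 35.7 and 36.1 CPM in Trim47-/- after 5-FU, 53.9, 58.6 and 58.5 in wild type after 5-FU, 59.7, 59.4 and 57.4 in untreated Trim47-/- and 45, 44.9 and 45.4 in untreated wild type. The log2 differences were -0.66 (SE 0.0397, edgeR adjusted p = 1.12e-07) after 5-FU and 0.38 (SE 0.0389, edgeR adjusted p = 2.31e-05) untreated, with an interaction of -1.04 (SE 0.0556, edgeR adjusted p = 3.94e-08). Trim39, a regulator of cell death and the cell cycle, went the other way, with 48, 48.8 and 45.2 CPM in Trim47-/- after 5-FU, 43, 42.8 and 44.7 in wild type after 5-FU, 57.5, 54.2 and 59.1 in untreated Trim47-/- and 71.8, 68.8 and 74.4 in untreated wild type. Untreated wild type was highest and wild type after 5-FU lowest, and the drug response was -0.27 (SE 0.0466, edgeR adjusted p = 0.00041) in Trim47-/- and -0.72 (SE 0.0468, edgeR adjusted p = 1.84e-07) in wild type. Trim39 differed by -0.33 (SE 0.0459, edgeR adjusted p = 0.000235) untreated, and by 0.12 after 5-FU. The call after 5-FU was lost when replicate 1 or 2 of Trim47-/- after 5-FU, replicate 1, 2 or 3 of wild type after 5-FU, replicate 1 of untreated Trim47-/-, or replicate 1 of untreated wild type was left out (log2 0.10 to 0.13, edgeR adjusted p 0.0569 to 0.137).

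Trim62 and Trim68 were both lowest in Trim47-/- after 5-FU, with all 3 libraries below the other 9. Trim62 had 4.84, 7.1 and 6.74 CPM in Trim47-/- after 5-FU, 10.1, 10.8 and 7.59 in wild type after 5-FU, 10.5, 11.6 and 11.6 in untreated Trim47-/- and 7.33, 8.25 and 8.57 in untreated wild type. Its response to the drug was -0.85 (SE 0.154, edgeR adjusted p = 0.00051) in Trim47-/- and 0.24 in wild type (edgeR adjusted p = 0.22), with an interaction of -1.09 (SE 0.217, edgeR adjusted p = 0.0012). Its untreated genotype difference of 0.48 lost the call when replicate 2 or 3 of untreated Trim47-/-, or replicate 1 or 2 of untreated wild type was left out (log2 0.42 to 0.50, edgeR adjusted p 0.0589 to 0.0931). Trim68, a coactivator of the androgen receptor, had 10.9, 10.5 and 9.79 CPM in Trim47-/- after 5-FU, 16.7, 15.8 and 18.9 in wild type after 5-FU, 15.4, 15.5 and 13.7 in untreated Trim47-/- and 12.4, 12 and 12.7 in untreated wild type. After 5-FU it differed by -0.72 (SE 0.084, edgeR adjusted p = 2.28e-05), and untreated by 0.27, a call lost when replicate 1 or 2 of untreated Trim47-/-, or replicate 1 or 2 of untreated wild type was left out (log2 0.24 to 0.27, edgeR adjusted p 0.0642 to 0.0834).

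Trim45 and Trim44 were also lower in Trim47-/- than in wild type after 5-FU, at -0.54 and -0.27. Trim45 had 8.09, 7.17 and 7.32 CPM in Trim47-/- after 5-FU, 11, 9.68 and 12.3 in wild type after 5-FU, 7.6, 8.45 and 8.85 in untreated Trim47-/- and 7.95, 6.31 and 7.05 in untreated wild type. Only wild type after 5-FU stood apart, and the drug response was -0.14 in Trim47-/- (edgeR adjusted p = 0.311) and 0.63 (SE 0.114, edgeR adjusted p = 0.000726) in wild type. Trim44, which lacks a RING finger, averaged 151 ± 2.92 CPM in Trim47-/- after 5-FU, 183 ± 1.01 in wild type after 5-FU, 224 ± 2.15 in untreated Trim47-/- and 204 ± 1.42 in untreated wild type (SD, n = 3 each). It was lower after the drug in both genotypes, at -0.57 (SE 0.0206, edgeR adjusted p = 1.10e-09) in Trim47-/- and -0.16 (SE 0.0206, edgeR adjusted p = 6.06e-05) in wild type.

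Of 4 genes for proteins of the same build under other names, 2 were higher and 2 lower in Trim47-/- after 5-FU, and 1 was higher and 2 lower in untreated Trim47-/-. Over all genes 27.2% were higher and 27.6% lower after 5-FU, and 17.6% higher and 15.4% lower untreated. Mefv, or pyrin, the sensor of an inflammasome in myeloid cells, averaged 16.7 ± 1.83 CPM in Trim47-/- after 5-FU, 6.49 ± 0.392 in wild type after 5-FU, 7.11 ± 0.326 in untreated Trim47-/- and 9.66 ± 0.436 in untreated wild type (SD, n = 3 each). It was higher in Trim47-/- after 5-FU at 1.36 (SE 0.091, edgeR adjusted p = 2.50e-07) and lower in untreated Trim47-/- at -0.44 (SE 0.0909, edgeR adjusted p = 0.00318). Pml, the organiser of nuclear bodies, differed by -0.36 after 5-FU and 0.37 untreated. The microtubule-bound Mid1 differed by 0.50 and -0.79 and Mid2 by -1.81 and -0.08 in those comparisons, and all but the untreated Mid2 difference passed.

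Of 10 E2 enzymes that work with RING ligases, 5 were higher and 0 lower in Trim47-/- after 5-FU (median 0.15), and 0 were higher and 1, Ube2w, lower in untreated Trim47-/- (median -0.02). Over all genes, 27.2% were higher and 27.6% lower after 5-FU (median 0.00), and 17.6% were higher and 15.4% lower untreated (median 0.03). After 5-FU Ube2e1 differed by 0.24 (SE 0.0409, edgeR adjusted p = 0.000487) and Ube2d3 by 0.24 (SE 0.06, edgeR adjusted p = 0.00562). Of 11 partners in RNA sensing, 3 were higher and 5 lower in Trim47-/- after 5-FU (median -0.14), and 3 were higher and 3 lower in untreated Trim47-/- (median -0.06). Ddx58, the gene of RIG-I and a target of Trim25, was lower in Trim47-/- after 5-FU at -0.50 (SE 0.0396, edgeR adjusted p = 9.22e-07) and higher untreated at 0.20 (SE 0.0391, edgeR adjusted p = 0.00277), both opposite to Trim25. Rnf135, another ligase of RIG-I, likewise differed by -0.97 after 5-FU and 0.52 untreated.

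Of 30 interferon response genes, 14 were higher and 5 lower in Trim47-/- after 5-FU (median 0.20), beside 27.2% of all genes higher and 27.6% lower. In untreated Trim47-/- 1 was higher and 16 lower (median -0.25), beside 17.6% higher and 15.4% lower over all genes. Irf7, the interferon regulatory factor, averaged 50.04 ± 3.16 CPM in Trim47-/- after 5-FU, 29.9 ± 0.0728 in wild type after 5-FU, 25.6 ± 1.65 in untreated Trim47-/- and 44.9 ± 1.8 in untreated wild type (SD, n = 3 each). Its differences were 0.74 (SE 0.0595, edgeR adjusted p = 1.10e-06) after 5-FU and -0.81 (SE 0.0594, edgeR adjusted p = 1.67e-06) untreated, the signs that Trim25 and Trim30a also had. Mx1, an antiviral GTPase, differed by 1.54 (SE 0.115, edgeR adjusted p = 6.14e-07) after 5-FU. Trim5, Trim14, Trim34a and Trim56, also known as interferon-induced, were lower in Trim47-/- after 5-FU, at -0.34, -0.42, -0.53 and -0.65. They are not a full list of interferon-induced members. In that comparison 4 of the 9 tested innate signalling members were higher and 3 lower. Of the 10 tested chromosome 7 members 1 was higher and 5 lower.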

How the data were processed

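RNA was measured by poly-A, stranded, paired-end sequencing on an Illumina NovaSeq, using RNA with an integrity number above 7, per the labels' protocols. The authors deposited whole-number counts per gene for the 12 libraries, not normalised, and FPKM values beside them, per the file headers. CASAVA 1.8, HISAT2, StringTie, edgeR and the build GRCm38 are listed, without roles, per the submitters' processing notes. Which tool counted, whether it used strand, and which annotation release it used were not stated in those sources, so overlapping genes may share reads. The deposited FPKM followed from the counts and 1 length per gene to within 0.000561% over 36 members with at least 50 counts in each library, and was used only to rank levels between genes. All 53 members were found at identical coordinates in GENCODE M21 (GRCm38).

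Groups and replicate numbers came from the sample titles. All 12 libraries entered 1 edgeR 4.0.16 fit (R 4.3.3) on the counts, with TMM scaling, edgeR's filterByExpr, which left 16319 of 28999 genes, and the quasi-likelihood test. Adjusted p-values are Benjamini-Hochberg over all genes tested, and a gene passed under 0.05. In the text "higher", "lower", "rose" and "fell" refer to genes that passed, and intervals of 1 SE come from the fit. Members given by library were Trim47, Trim65 and, in each comparison, the 4 with the largest change each way among those that passed, averaging 1 CPM or more and with, in pairwise comparisons, groups that do not overlap. Trim9, Trim26 and Trim28, the means of Trim44 and Trim56, and the members below the filter fall outside that rule and were chosen after their values were seen. Of each related gene list, genes with the smallest p were named. Members, role groups and lists were chosen with earlier results of these data known.

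The alternatives were the test of DESeq2 1.42.0, its size factors within edgeR, a fit of all genes with a read, a block on replicate number, only the 6 libraries compared, a test against a 1.5-fold change, and each library left out in turn. Python 3.11.15 with numpy 2.4.6, pandas 2.3.3, scipy 1.17.1 and matplotlib 3.10.9 handled tables and plots. The procedure was tested on simulated counts.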

Additional observations from a re-analysis of the deposited data

Results flagged for a closer look

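The response to 5-FU differed with genotype, by edgeR's interaction test, in 37 of the 46 members tested (80.4%, against 54.9% of all genes). Each value here is the log2 response in Trim47-/- minus that in wild type. Values below 0, a response lower in Trim47-/-, came in 27 members. Those beyond -1 or at it were Trim9 (-2.94), Trim47 (-1.34), Trim62 (-1.09), Trim30b (-1.07), Trim59 (-1.04), Trim46 (-1.04), Trim30c (-1.03), Trim32 (-1.01) and Trim10 (-1.00). Between -1 and -0.5 lay Trim68 (-0.99), Trim58 (-0.91), Trim65 (-0.88), Trim56 (-0.84), Trim45 (-0.77), Trim3 (-0.76), Trim5 (-0.74), Trim23 (-0.71), Trim34b (-0.67), Trim14 (-0.66), Trim34a (-0.63) and Trim35 (-0.51). Smaller differences below 0 were those of Trim44 (-0.41), Trim24 (-0.39), Trim12c (-0.36), Trim21 (-0.35), Trim41 (-0.31) and Trim37 (-0.24). The 10 members above 0 were Trim72 (5.50), Trim36 (2.36), Trim25 (1.36), Trim16 (0.75), Trim13 (0.49), Trim39 (0.46), Trim30a (0.45), Trim6 (0.42), Trim33 (0.12) and Trim28 (0.11). The calls of Trim6, Trim21, Trim30c, Trim33 and Trim34b were lost when certain single libraries were left out, with edgeR adjusted p of up to 0.0571, 0.0516, 0.0980, 0.0844 and 0.120 in that order. Trim9 and Trim72 rest on few reads, and their fitted values depend on the prior count.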

How the results depend on the processing

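Over the 48 results of members with the largest changes and of Trim47 and Trim65, 855 values were recomputed and none turned its direction, 798 kept their side of the threshold, 56 lost the call and 1 gained it, that of Trim47 in untreated cells without replicate 1 of Trim47-/-. Apart from Trim47 and Trim65, these results were chosen because they passed, and in pairwise comparisons because their groups did not overlap. Their kept directions were thus largely set by that choice. Outside those results calls were gained more often, since of 80 values of tested members that did not pass, over the 5 comparisons, 23 (Trim47 included) passed in at least 1 fit that left out a library. DESeq2 on all genes with a read, with its own size factors, gave 11 members higher in untreated Trim47-/- in place of 17, and edgeR gave 13 with those size factors and 13 without the filter on low counts. Against a 1.5-fold change, fewer members passed, with 4 higher and 2 lower in Trim47-/- after 5-FU, 1 higher and 1 lower in untreated Trim47-/-, 3 higher and 6 lower with 5-FU in Trim47-/-, 1 higher and 2 lower with 5-FU in wild type, and 3 interactions above 0 and 10 below. With each library left out in turn, 10 to 14 members were higher and 19 to 22 lower in Trim47-/- after 5-FU, 12 to 19 and 4 to 5 in untreated Trim47-/-, 7 to 9 and 22 to 25 with 5-FU in Trim47-/-, 12 to 15 and 11 to 13 with 5-FU in wild type, and 8 to 11 and 24 to 27 for the interaction. To compare replicate numbers, each gene's group mean was subtracted from its log2 level. The deviations left in same-numbered libraries of different groups correlated on average at -0.173 to 0.0980 over the 6 pairs of groups. This correlation was not computed for libraries of different numbers, so whether the replicate numbers mark a batch or a pairing was not tested. With the replicate block, 9 members were higher and 21 lower in Trim47-/- after 5-FU, and 17 higher and 4 lower in untreated Trim47-/-. Members under 1 CPM have few reads at 13919649 to 20703198 counts a library. Of the 7 members below the filter, 3 passed in some comparison when it was dropped and 2 with DESeq2.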

Other observations

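Members below the filter on low counts are given as raw counts, with tests only from the fits that kept them. Trim17, a ligase linked to neuronal cell death, had 17, 15 and 8 counts in Trim47-/- after 5-FU, 2, 3 and 5 in wild type after 5-FU, 10, 3 and 3 in untreated Trim47-/- and 2, 0 and 2 in untreated wild type. It shares 708 of its 3736 exonic bases with the histone gene Hist3h2a on the same strand, and whether its counts come from that gene was not tested. Trim71, a regulator of early development, had 8, 9 and 10 counts in Trim47-/- after 5-FU, 3, 2 and 3 in wild type after 5-FU, 2, 5 and 7 in untreated Trim47-/- and 6, 2 and 0 in untreated wild type. Trim69 had 15, 4 and 11 counts in Trim47-/- after 5-FU, 5, 4 and 3 in wild type after 5-FU, 9, 5 and 5 in untreated Trim47-/- and 7, 4 and 5 in untreated wild type. Without the filter, 3 of them passed in edgeR as higher in Trim47-/- than in wild type after 5-FU, Trim17 at log2 2.12 (edgeR adjusted p = 0.0167), Trim71 at 1.87 (edgeR adjusted p = 0.0482) and Trim69 at 1.46 (edgeR adjusted p = 0.0438). DESeq2 also called Trim17 at 2.19 (DESeq2 adjusted p = 0.0122) and Trim71 at 1.94 (DESeq2 adjusted p = 0.0430). Trim17 rose with 5-FU in Trim47-/- in both, at 1.82 (edgeR adjusted p = 0.0195) and 1.87 (DESeq2 adjusted p = 0.0209), and these fitted values rest on few reads. Trim55, of striated muscle, had 0 to 10 counts a library, the pseudogene Trim30e-ps1 0 to 6, and Trim67 and Trim38 had reads in 1 library each.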
